A study of Mus musculus with 12 samples.

Results

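The genes described here are 6 efflux transporter genes of mouse liver, Abcc3, Abcc4, Abcc6, Abcc2, Abcg2 and Abcb1a, taken by their names from the 24062 genes of the count tables. All 6 were present, and they are 6 of the 53 genes of the ATP-binding cassette (ABC) superfamily in these tables. The other 47 served as the comparison.

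Liver RNA of 12 C57BL/6J females was sequenced and analysed. Of these, 6 ate the control diet and 6 the same diet carrying BIBB-515, an inhibitor of lanosterol synthase, dosed at 55 mg/kg body weight. The animals arrived at 6 weeks of age, had 2 weeks to acclimate and ate the control diet for 3 days before the groups were formed, and treatment lasted 10 days. Reads counted on genes ranged from 22764819 to 27914647 per mouse in the control group and from 24223939 to 31058370 in the BIBB-515 group. Counts were scaled by the TMM method of edgeR and are given as CPM, relative to the scaled library size of each mouse, and the 12481 genes that reached 1 CPM in 2 or more mice were tested.

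ABC transporters use ATP to move their cargo across a membrane. In hepatocytes, those of the canalicular membrane pass drugs, bile salts, lipids and conjugates into bile, whereas those of the basolateral membrane return conjugates to blood, from which the kidney can clear them. Xenobiotics that reach the liver are commonly oxidized, then joined to glucuronate, sulfate or glutathione, and these charged products cannot leave the cell without such carriers.

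The libraries carried the markers of liver. All 7 hepatocyte markers were detected, with Alb, the albumin gene, as the most abundant at 120094 ± 5999.5 CPM without and 90923 ± 5661 CPM with BIBB-515 (mean ± SD, n = 6 per diet). The summed level of the 7 markers was 151094 CPM in the lowest control mouse, 163940.0 CPM at the median and 170260.2 CPM in the highest, against 115095, 126887 and 130508 CPM with BIBB-515. The groups did not overlap in this sum (p = 0.00216 by a two-sided exact permutation test, below which groups of 6 cannot go), and 3 of the 7 markers, Alb, Ttr and Ahsg, passed an FDR of 0.05 as lower, against 6.48% of all tested genes. Most of the sum is Alb, and Apoa1, Tat, Cps1 and Cyp2e1 did not pass, at log2 fold changes of -0.27, -0.22, -0.09 and -0.03. Fewer hepatocytes and less RNA of these genes per cell cannot be told apart in bulk tissue, and the part of this difference in the transporter values was not tested.

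Of the 6 transporter genes, 4 had an FDR under 0.05 in edgeR's quasi-likelihood test, against 13.7% of all tested genes. All 4 (Abcc3, Abcb1a, Abcc4 and Abcg2) were higher with BIBB-515, a direction that held 7.18% of the tested genes. None of the 6 was lower at this threshold, where 6.48% of the tested genes stood, whether by edgeR, DESeq2 or limma-voom, although 1 of them, Abcc6, had a lower mean with BIBB-515 and an unadjusted p of 0.0417 in edgeR's test. In 2 of the 6, Abcc3 and Abcb1a, each BIBB-515 mouse exceeded each control mouse, a pattern found in 4.35% of the tested genes. The median log2 fold change was 0.64 over the 6 genes and -0.01 over all tested genes.

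**Figure D1:**
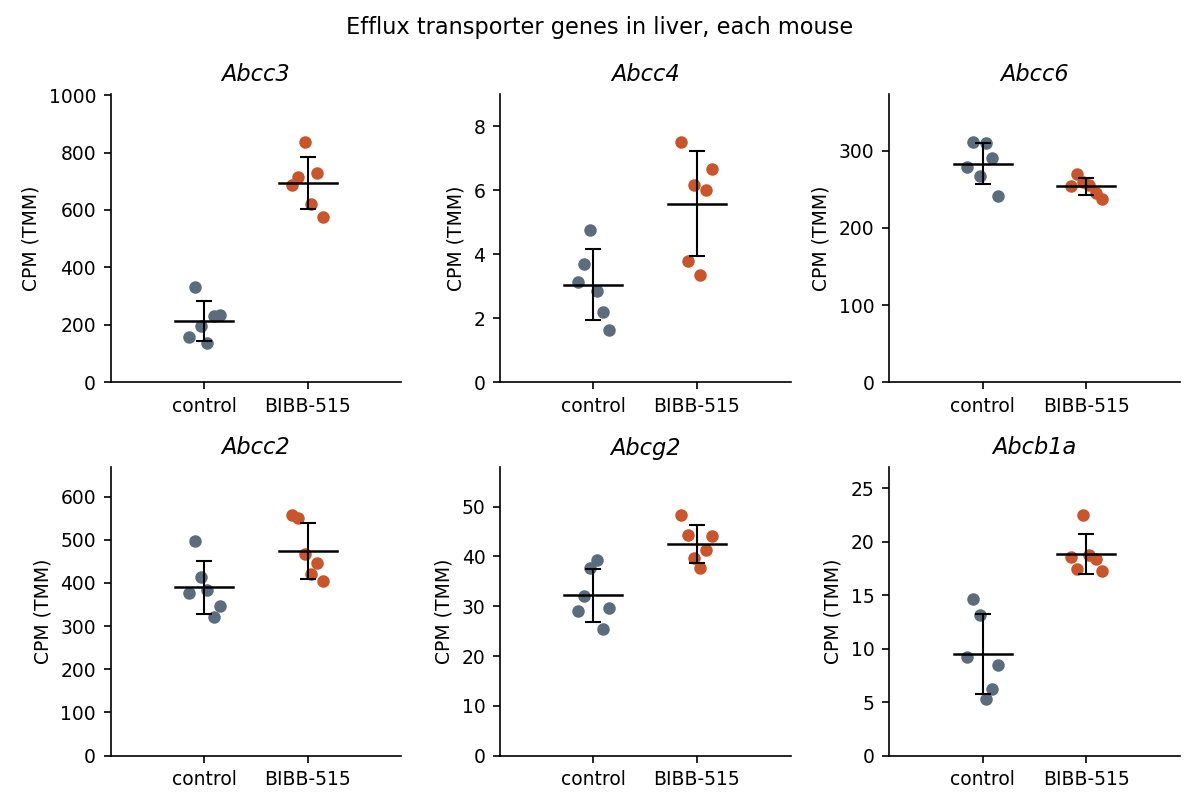
Normalized level (CPM, linear axes from 0) of the 6 transporter genes in each mouse, with basolateral transporters in the upper row and canalicular ones in the lower row; points are mice, the long bar is the group mean and the error bar 1 SD (n = 6 per group). In Abcc3 and Abcb1a the groups do not overlap, while in the other 4 genes they do.

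Abcc3 encodes MRP3, a basolateral exporter of glucuronide conjugates and bile salts, and lies on the minus strand of chromosome 11 from 94343295 to 94392976 (mm10). In the control mice it ranged from 136 to 330.0 CPM with a median of 213 CPM, and in the BIBB-515 mice from 575 to 838 CPM with a median of 701 CPM. The groups stood far apart, since the lowest treated mouse, replicate 11, exceeded the highest control, replicate 2. The mean rose from 214 ± 69.2 to 694 ± 91.8 CPM (mean ± SD, n = 6 per diet), which is a log2 fold change of 1.70 (SE 0.18, 95% confidence interval 1.31 to 2.08, FDR 3.07e-05 in edgeR). With log2 CPM, the two-sided exact permutation test gave p = 0.00216. Relative spread between mice was wider on the control diet, where the SD was 32.3% of the mean, than with BIBB-515, where it was 13.2%, a difference that was not tested.

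Abcc4 encodes MRP4, a second basolateral exporter, which carries sulfated steroids, bile salts together with glutathione, and cyclic nucleotides. It lies on the minus strand of chromosome 14 from 118482692 to 118706219 and was the least abundant of the 6 genes. Control mice had between 1.62 and 4.77 CPM with a median of 3.00 CPM, from 40 to 109 reads each, and BIBB-515 mice between 3.36 and 7.52 CPM with a median of 6.09 CPM, from 83 to 237 reads each. The groups overlapped: replicates 7 and 9 of the BIBB-515 group lay within the control range and the other 4 above it. The log2 fold change was 0.87 (SE 0.25, 95% confidence interval 0.35 to 1.40, FDR 0.0297 from edgeR's quasi-likelihood test), with all 6 treated mice above the control mean and p = 0.0152 in the two-sided exact permutation test. This call was lost in 8 of the 12 fits that left out 1 mouse, those without control replicate 1, 4, 5 or 6 or BIBB-515 replicate 6, 8, 10 or 11, with an FDR of at most 0.0661 in edgeR's test.

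Abcc6 encodes MRP6, a basolateral protein of hepatocytes that mediates the release of ATP, a source of the mineralization inhibitor pyrophosphate in plasma. It lies on the minus strand of chromosome 7 from 45976380 to 46030286. Its level was between 241 and 312 CPM with a median of 285 CPM in the control mice and between 238 and 270.0 CPM with a median of 256 CPM in the BIBB-515 mice. The groups overlapped widely, with all 6 treated mice below the control mean but 1 of them, replicate 11, below every control. The log2 fold change was -0.16 (SE 0.07, 95% confidence interval -0.31 to -0.01) and missed the threshold, with an FDR of 0.150 in edgeR and an unadjusted p of 0.0390 in the two-sided exact permutation test. Missing the threshold does not show that the diets are alike.

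Among the canalicular exporters, Abcc2 encodes MRP2, the principal route of bilirubin glucuronides and glutathione conjugates into bile. The gene lies on the plus strand of chromosome 19 from 43782308 to 43838218. Control mice had between 322 and 496 CPM with a median of 380.1 CPM, and BIBB-515 mice between 404 and 557 CPM with a median of 456 CPM. Only replicates 6 and 7 of the treated group lay above every control mouse, and control replicates 2 and 3 lay within the treated range while the other 4 controls lay below it. The means were 389.6 ± 61.0 and 474 ± 65.4 CPM (mean ± SD, n = 6 per diet), which is a log2 fold change of 0.28 (SE 0.11, 95% confidence interval 0.04 to 0.52) that did not pass, with an FDR of 0.104 from edgeR's quasi-likelihood test. The two-sided exact permutation test gave an unadjusted p = 0.0433. Without control replicate 2, the log2 fold change was 0.36 and the FDR 0.0286 in edgeR's test.

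Abcg2 encodes BCRP, a canalicular exporter of sulfate conjugates, urate and many drugs, which works as a dimer. On the plus strand of chromosome 6 from 58596672 to 58692451, it had between 25.5 and 39.2 CPM with a median of 30.8 CPM in the control mice and between 37.7 and 48.3 CPM with a median of 42.7 CPM in the BIBB-515 mice. The overlap was narrow, since 5 of the 6 treated mice exceeded every control and 5 of the 6 controls lay below every treated mouse. Its log2 fold change was 0.40 (SE 0.10, 95% confidence interval 0.19 to 0.62, FDR 0.0158 in edgeR), and the two-sided exact permutation test gave p = 0.00433.

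Abcb1a encodes a P-glycoprotein, which extrudes hydrophobic drugs across the canalicular membrane and, in other organs, across the blood-brain barrier and the gut wall. The gene lies on the plus strand of chromosome 5 from 8660092 to 8748570. Its level was between 5.31 and 14.7 CPM with a median of 8.85 CPM in the control mice and between 17.3 and 22.5 CPM with a median of 18.5 CPM in the BIBB-515 mice. All 6 treated mice lay above all 6 controls, and replicate 8 stood above the rest of its group. The mean rose from 9.51 ± 3.73 to 18.8 ± 1.88 CPM (mean ± SD, n = 6 per diet), which is a log2 fold change of 0.98 (SE 0.20, 95% confidence interval 0.56 to 1.41, FDR 0.00527 from edgeR's quasi-likelihood test), with p = 0.00216 in the two-sided exact permutation test.

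Abcb1b, which encodes the other drug-carrying P-glycoprotein of the mouse, is a near copy of Abcb1a on the same chromosome, from 8798147 to 8866314. Reads matching several places were not counted, so reads from sequence that the copies share exactly are missing from both genes. Of the 5459 different 50-base words in the GENCODE transcripts of Abcb1a, 22.5% also occur in transcripts of other genes, most of them (889 words) in Abcb1b. In the remaining 5 transporter genes the share was at most 0.844%, and no exon of the 6 overlaps an exon of another gene in the authors' annotation. Abcb1b had between 16 and 38 reads per control mouse and between 12 and 26 per BIBB-515 mouse, and its log2 fold change of -0.50 (SE 0.22) did not pass, with an FDR of 0.140 from edgeR's quasi-likelihood test. The unadjusted p was 0.0373 in that test and 0.0346 in the two-sided exact permutation test. All 6 treated mice lay below the control mean of Abcb1b. The authors' counts of primary alignments were larger by at most 0.236% for Abcb1a and 8.33% for Abcb1b in any mouse. The values of both copies are uncertain where their sequences are shared.

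Levels of different genes were compared after dividing the counts by gene length and scaling every mouse to the same sum (TPM). In the control mice the order from the highest mean was Abcc2 at 138 ± 26.7 TPM (SD, n = 6), Abcc6 at 108 ± 12.0 TPM (SD, n = 6), Abcc3 at 81.0 ± 27.0 TPM (SD, n = 6), Abcg2 at 24.6 ± 4.82 TPM (SD, n = 6), Abcb1a at 3.66 ± 1.57 TPM (SD, n = 6) and Abcc4 at 0.991 ± 0.405 TPM (SD, n = 6). The values of Abcc2 and Abcc6 overlapped between mice, as did those of Abcc6 and Abcc3, whereas the remaining neighbors were separated in TPM. Within single control mice, Abcc2 was above Abcc6 in 6 of 6 and Abcc6 above Abcc3 in 5 of 6. In the BIBB-515 mice Abcc3 came first, at 269 ± 38.7 TPM (SD, n = 6), ahead of Abcc2 at 171 ± 27.8 TPM (SD, n = 6) and Abcc6 at 99.2 ± 6.78 TPM (SD, n = 6), and no neighbors overlapped. Abcc3 was the third of the 6 in 5 of the 6 control mice and the first in all 6 BIBB-515 mice.

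The exporters of conjugates and drugs were also summed, as the ratio of the TPM of the basolateral Abcc3 and Abcc4 to that of the canalicular Abcc2, Abcg2 and Abcb1a. Abcc6, which is basolateral but is known for the release of ATP, was left out, as were the canalicular carriers outside the 6 genes. This ratio was between 0.32 and 0.65 with a median of 0.52 in the control mice and between 1.10 and 1.58 with a median of 1.25 in the BIBB-515 mice. The groups did not overlap, but whether the ratio lay above 1 depended on the genes in it. With Abcc6 added to the basolateral side, it was between 0.99 and 1.48 with a median of 1.13 in the control mice and lay above 1 in 5 of the 6. The BIBB-515 mice then had a median of 1.77 and a highest value of 2.07, and the lowest of them was narrowly above the highest control. The median of the summed Abcc3 and Abcc4 was 279 TPM against 81.0 TPM on the control diet, and that of the canalicular sum 202 TPM against 163 TPM. Abcc3 made up nearly all of the former sum and, at the median, 44.9% of the summed TPM of the 6 genes with BIBB-515 against 23.4% on the control diet. Transcript levels are not protein levels, which these data do not measure.

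**Figure D2:**
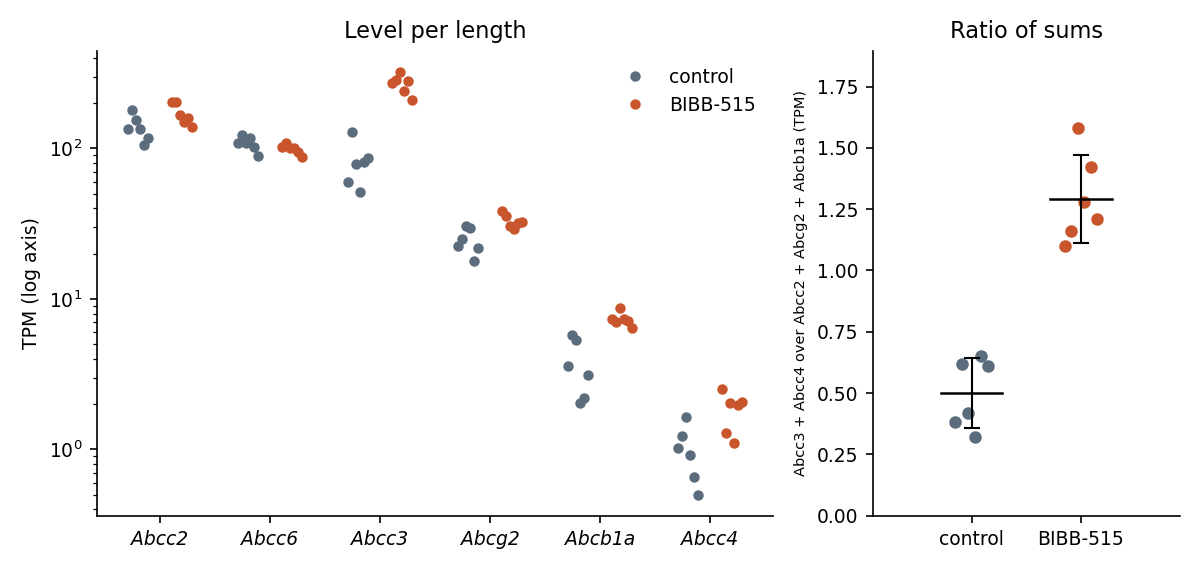
Left, level per length (TPM, log axis) of the 6 transporter genes in each mouse, ordered by the control mean; right, the ratio of summed Abcc3 and Abcc4 to summed Abcc2, Abcg2 and Abcb1a TPM, without Abcc6, in each mouse, with the group mean and 1 SD (n = 6 per group). Every control mouse has a ratio of at most 0.65 and every BIBB-515 mouse one of at least 1.10.

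The authors also counted reads on each exon, which shows whether a difference runs along the whole gene. Exons of 1 gene share their source and are not replicates, so these values are a description, limited to exons with a mean of at least 10 reads over the 12 mice. In Abcc3 all 31 exons had a higher mean CPM with BIBB-515, with log2 ratios from 1.59 in exon 6 to 1.84 in exon 15, and in each of the 31 the groups did not overlap. All 32 exons of Abcc2 had higher means too, with log2 ratios between 0.14 and 0.40. In Abcc6, 30 of 31 exons had lower means, with log2 ratios from -0.30 in exon 4 to 0.04 in exon 1. The small differences of Abcc2 and Abcc6, neither of which passed, kept their sign along nearly the whole gene in the group means. Exon counts come from the same libraries as the gene counts, so this is no separate support for either difference.

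Of the 16 exons of Abcg2, 15 had enough reads and all 15 had higher means, with log2 ratios from 0.24 in exon 11 to 0.66 in exon 2. The groups did not overlap in only 1 of these 15. In Abcb1a the 18 exons with enough reads all had higher means, with log2 ratios from 0.54 in exon 21 to 1.46 in exon 6. Only 2 of these 18 had groups that did not overlap. Abcc4 was too shallow for this view, because exon 32 alone, the last and at 1749 bases the longest, reached 10 reads. Taken after its values were seen, the comparison of this exon with the sum of the other 31 gave unequal ratios. The last exon of Abcc4 had a median of 2.03 CPM in the control mice (lowest 0.929, highest 2.58) and 3.20 CPM in the BIBB-515 mice (lowest 1.82, highest 3.88), a log2 ratio of means of 0.60. The exons before it together had a median of 1.65 CPM in the control mice (lowest 1.01, highest 3.63) and 4.68 CPM in the BIBB-515 mice (lowest 2.71, highest 7.10), a log2 ratio of means of 1.30. The groups overlapped in both quantities, and the difference between the ratios was not tested.

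**Figure D3:**
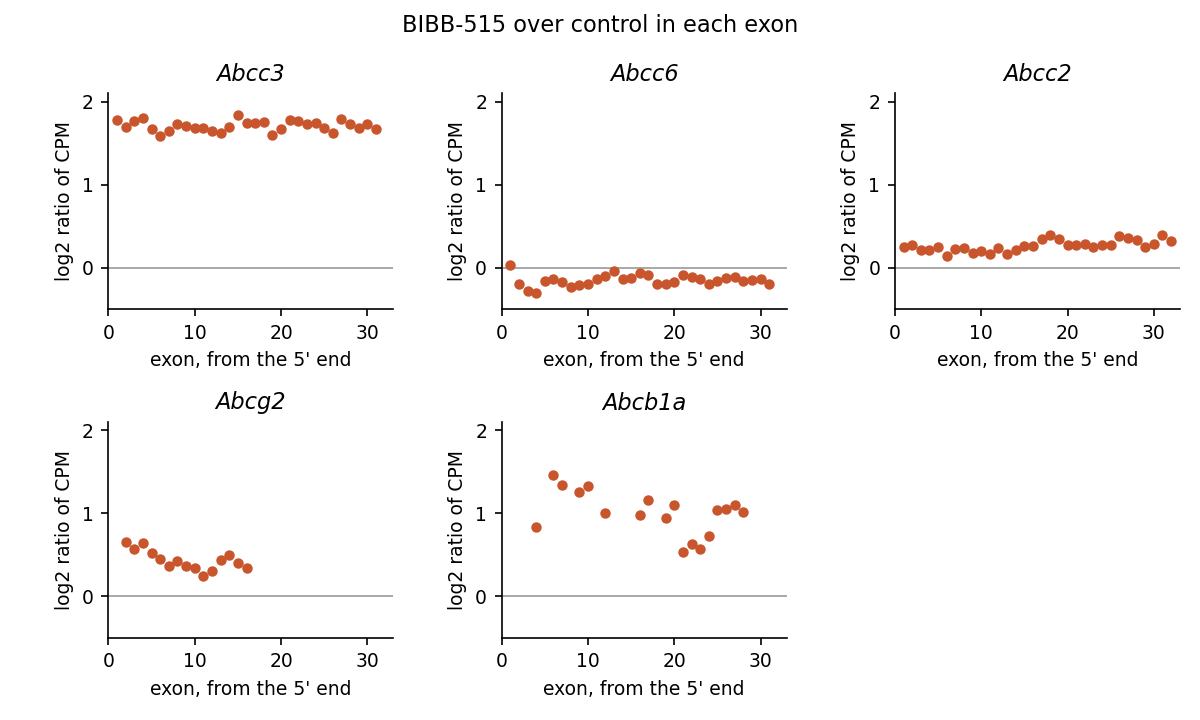
Log2 ratio of the mean CPM with BIBB-515 to the mean CPM on the control diet (vertical axis) for each exon counted from the 5′ end (horizontal axis), in the 5 genes with more than 1 exon of at least 10 reads on average; each point is 1 exon. The points of Abcc3 lie between 1.59 and 1.84 along all 31 exons, those of Abcc2 between 0.14 and 0.40.

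The other ABC genes gave a different count. Of the 47, 35 passed the filter on low counts, and 5 of these had an FDR under 0.05, 4 higher and 1 lower, which is 14.3% against the 13.7% of all tested genes. Over the 35 tested genes the median log2 fold change was -0.00. The count of 5 was between 3 and 7 when each mouse in turn was left out, and 9 with 1 surrogate variable as covariate. Among all tested genes the count was 1705, between 1199 and 1865 with 1 mouse left out, and 2443 with the surrogate variable. The sterol exporters Abcg5 and Abcg8, whose products work as a pair at the canalicular membrane, had the smallest p. Abcg5 was at 135 ± 21.5 and 249 ± 29.4 CPM (mean ± SD, n = 6 per diet), which is a log2 fold change of 0.88 (FDR 0.000102 in edgeR), and Abcg8 had one of 0.86 (FDR 0.000235 in edgeR). In Abcg5 and Abcg8 each treated mouse exceeded each control.

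Smaller differences passed as well. Abcb8, a transporter of the mitochondrial inner membrane, had a log2 fold change of 0.18 (FDR 0.0409 from edgeR's test), and Abca7, a lipid transporter, one of -0.25 (FDR 0.0448 from edgeR's test) with all 6 treated mice below all controls. Neither call was firm, since that of Abca7 was lost in 9 and that of Abcb8 in 8 of the 12 fits that left out 1 mouse, and under 3 and 1 of the 7 other alternatives. The other main carriers of the canalicular membrane did not pass. Abcb11, the bile salt export pump, was at 579.8 ± 78.6 and 625 ± 26.9 CPM (mean ± SD, n = 6 per diet), with an FDR of 0.442 from edgeR's test. Abcb4, the phospholipid floppase, had a log2 fold change of -0.00 (SE 0.14) with an FDR of 0.990 from edgeR's test. Abcc1, a near relative of Abcc3 that liver transcribes little, was at 2.42 ± 0.446 and 2.54 ± 0.502 CPM (mean ± SD, n = 6 per diet). Abcb11, Abcb4 and Abcc1 were named after their values were seen.

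Carriers on the uptake side moved in both directions. Of 7 uptake carriers, 3 passed an FDR of 0.05 (42.9% against 13.7% of all tested genes), 1 higher and 2 lower, and the median log2 fold change was -0.20. Slco1a4, a basolateral importer of organic anions, rose from 195 ± 77.1 to 528 ± 56.7 CPM (mean ± SD, n = 6 per diet), which is a log2 fold change of 1.44 (FDR 0.000630 from edgeR's test). Slco1a1, of the same family, had a log2 fold change of -1.67 (FDR 0.000971 from edgeR's test), and Slc22a7, an organic anion transporter, one of -1.24 (FDR 0.000801 from edgeR's test). The groups did not overlap in any of these 3 genes. Slc10a1, the sodium-dependent bile salt importer, did not pass, with a log2 fold change of -0.22 and an FDR of 0.0894 from edgeR's test.

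Enzymes that make conjugates of the kind these exporters carry were counted as well. Of 12 listed conjugation genes, 11 were in the tables and tested, and 7 of the 11 passed as higher (63.6% against 7.18% of all tested genes), with a median log2 fold change of 0.51, while 7 passed with DESeq2 and 6 with limma-voom. Ugt1a9, a glucuronosyltransferase, had a log2 fold change of 2.34 (FDR 6.00e-06 from edgeR's test), a value that rests on reads outside the exons shared by the genes of its locus. Ugdh, whose enzyme makes the glucuronate donor, rose from 79.8 ± 35.2 to 344 ± 60.0 CPM (mean ± SD, n = 6 per diet), which is a log2 fold change of 2.11 (FDR 4.33e-05 from edgeR's test). Papss2, whose enzyme makes the sulfate donor, had a log2 fold change of 0.51 (FDR 0.00261 from edgeR's test), and Ugt2b36, a further glucuronosyltransferase, one of 0.33 (FDR 0.00397 from edgeR's test).

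Proteins that hold canalicular transporters in place or deliver them to the membrane are encoded by a list of 9 genes, of which 2 passed as higher, 22.2% of the list against 7.18% of all tested genes, with a median log2 fold change of -0.06. These were Slc9a3r1, a scaffold with PDZ domains, at a log2 fold change of 0.38 (FDR 0.0192 from edgeR's test), and Myo5b, a motor of apical recycling vesicles, at 0.41 (FDR 0.0338 from edgeR's test). Rdx, which encodes the radixin that links canalicular transporters to actin, was at 169.7 ± 22.7 and 165 ± 12.0 CPM (mean ± SD, n = 6 per diet) and did not pass (FDR 0.793 from edgeR's test).

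Receptors and the transcription factor NRF2, known to act on efflux transporter genes, were described at the transcript level. None of the 9 listed genes of receptors, NRF2 and partners passed an FDR of 0.05 in edgeR's test, against 13.7% of all tested genes. In the same test 3 had an unadjusted p under 0.05, as did 3713 of all 12481 tested genes. Of the 9, 1 passed with DESeq2 and 0 with limma-voom. Nr1i2, which encodes PXR, was at 111 ± 19.1 and 136 ± 12.1 CPM (mean ± SD, n = 6 per diet), with an FDR of 0.0658 from edgeR's test. Nr1i3, which encodes CAR, had a log2 fold change of 0.02 (SE 0.12), and Nfe2l2, which encodes NRF2, one of -0.03 (SE 0.10). These values are of transcripts, and the activity of the receptors and of NRF2 was not measured.

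Other genes that these receptors or NRF2 are known to act on were also counted. Of 7 enzyme targets of CAR and PXR, 6 passed as higher (85.7% against 7.18% of all tested genes), with a median log2 fold change of 3.24, the lowest p being those of Ces2a, Cyp3a11, Cyp2c55 and Cyp2b10. Alas1, the first enzyme of heme synthesis, did not pass (log2 fold change 0.35, FDR 0.435 from edgeR's test). Of 8 tested NRF2 targets 4 passed, all higher, against 7.18% of all tested genes, with a median log2 fold change of 0.43. They were Gsta1, which has close copies that make its value uncertain, Gstm1 at a log2 fold change of 2.21, Srxn1 at 0.65 and Nqo1 at 0.74 (FDR 0.00636 from edgeR's test). Gclc at 0.18, Gclm at 0.22, Hmox1 at 0.07 and Txnrd1 at 0.05 did not pass.

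In the AHR list 1 of 4 tested genes passed (25.0% against 13.7% of all tested genes), Cyp1a2, at a log2 fold change of 0.73 (FDR 0.000324 from edgeR's test), whereas Cyp1a1, the usual marker of that receptor, was near 1 CPM in both groups and did not pass. In the PPARA list 1 of 6 passed (16.7% against 13.7%), Fgf21, which was lower, and the median log2 fold change was -0.38. Cyp4a10 and Cyp4a14, the fatty acid hydroxylases of that list, did not pass, with log2 fold changes of -0.08 and -0.33.

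Genes whose values followed those of the called transporters from mouse to mouse were found from log2 CPM after the mean of each diet group was taken away, over 12 mice and 11169 genes whose average log2 CPM was 1 or more. The 2 highest for Abcc3 were Plbd2 (Pearson's r 0.96, Spearman's rho 0.88) and Mroh1 (r 0.94, rho 0.87). For Abcb1a they were Tbcd (r 0.95, rho 0.94) and Thra (r 0.94, rho 0.97), and for Abcg2 Col4a1 (r 0.93, rho 0.92) and Vps29 (r 0.92, rho 0.87). For Abcc4 they were Srxn1 (r 0.90, rho 0.92), a gene of the NRF2 list, and Tbc1d2 (r 0.88, rho 0.71). As the highest of so many genes these coefficients are large by selection and are given with no test. Among the 6 transporter genes themselves the coefficients were lower, from r -0.35 (rho -0.30) between Abcc3 and Abcg2 to r 0.59 (rho 0.34) between Abcb1a and Abcc3, while the highest rho, 0.66 (r 0.53), was between Abcc2 and Abcg2.

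Markers of other cell types were counted because bile duct, endothelial and other cells also make some of these transporters. Of 7 cholangiocyte markers 6 were tested and none passed an FDR of 0.05 in edgeR's test, against 13.7% of all tested genes (1 with DESeq2, 0 with limma-voom). At an unadjusted p under 0.05 there was 1 of the 6, beside 3713 of all 12481 tested genes. Their summed level was between 63.3 and 117 CPM with a median of 95.8 CPM in the control mice and between 93.2 and 156 CPM with a median of 119 CPM in the BIBB-515 mice, with p = 0.0368 by the two-sided exact permutation test. Nearly all of this sum was Spp1, at 82.6 ± 17.0 and 112 ± 22.4 CPM (mean ± SD, n = 6 per diet), and 4 of the 6 tested markers had a log2 fold change above 0, with a median of 0.19. The duct keratin genes Krt7 and Krt19 were at -0.15 and -0.50, and Epcam, Sox9 and Tspan8 at 0.08, 0.31 and 0.51, none of which passed. None of the cholangiocyte markers was at 0 in all mice, and the part of these cells in the transporter values was not tested.

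The 7 endothelial markers, led by Stab2, had a median sum of 222 CPM in each group (two-sided exact permutation test, p = 0.496), with a range of 209 to 284 CPM in the control mice and of 192 to 265 CPM in the BIBB-515 mice. Of the 6 Kupffer cell markers 5 were in the tables, led by Clec4f, with sums of 272 to 451 CPM and 273 to 476 CPM (two-sided exact permutation test, p = 0.827). None of these 12 markers passed an FDR of 0.05 with edgeR, against 13.7% of all tested genes, nor with DESeq2 or limma-voom, and none had an unadjusted p under 0.05. Of the 6 stellate cell markers, 2 passed as lower (33.3% against 6.48% of all tested genes), Lrat at a log2 fold change of -0.81 and Dcn at -0.27, and their sum, led by Dcn, ranged from 291 to 384 CPM in the control mice and from 275 to 323 CPM in the BIBB-515 mice, with p = 0.0130 by the two-sided exact permutation test.

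The remaining markers were scarce. The 6 leukocyte markers, led by Ptprc, summed to 13.5 to 18.6 CPM in the control mice and 10.8 to 19.6 CPM in the BIBB-515 mice, and the 4 adipocyte markers to at most 0.121 CPM in any mouse, with Lep at 0 in all 12. Among the pancreas markers, Prss2 was at 0 and Cpa1 near 0, and Cela1 was at 14.0 ± 4.67 and 9.48 ± 0.332 CPM (mean ± SD, n = 6 per diet). Cela1 passed as lower, with a log2 fold change of -0.56 and an FDR of 0.0365 in edgeR, and also passed with DESeq2 but not with limma-voom, and the sum of the 3 markers gave p = 0.00433 in the two-sided exact permutation test. Of the erythroid markers, Alas2 was at 12.4 ± 2.42 and 11.1 ± 1.84 CPM (mean ± SD, n = 6 per diet), and Hba-a1 and Hbb-bs had 0 counts in all 12 mice in these tables, which leave out reads matching several places. The part of any of these cells in the transporter values was not tested.

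Promoter sequences, 250 bases before to 50 bases after a start site, were in the RefSeq table (build GRCm38.p6) for 4 of the 6 genes and are given as a description. No entry was found for Abcc3 or Abcc6. The start used for Abcb1a lies 93001 bases upstream of the start in the authors' annotation, so its window was not printed. For Abcc4, Abcg2 and Abcc2 a window starts where the authors' gene starts, at chr14:118706170-118706469 on the minus strand, chr6:58596422-58596721 on the plus strand and chr19:43782058-43782357 on the plus strand. Capitals mark matches, on either strand, to the NRF2 core TGACNNNGC, to the AHR core GCGTG and to the nuclear receptor hexamer AGGTCA or AGTTCA, whose reverse can overlap the NRF2 core.
Abcc4: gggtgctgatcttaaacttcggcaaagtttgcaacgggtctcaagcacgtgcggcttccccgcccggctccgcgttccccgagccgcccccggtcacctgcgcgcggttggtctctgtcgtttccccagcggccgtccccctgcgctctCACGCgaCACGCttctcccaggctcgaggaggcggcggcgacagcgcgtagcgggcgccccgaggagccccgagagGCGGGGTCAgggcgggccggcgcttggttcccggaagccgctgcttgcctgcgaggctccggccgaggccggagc
Abcg2: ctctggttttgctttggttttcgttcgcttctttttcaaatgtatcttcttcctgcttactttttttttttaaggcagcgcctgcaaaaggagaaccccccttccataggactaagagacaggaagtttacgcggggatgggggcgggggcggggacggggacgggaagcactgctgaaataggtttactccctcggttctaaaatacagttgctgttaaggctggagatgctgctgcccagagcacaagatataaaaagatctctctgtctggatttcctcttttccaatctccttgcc
Abcc2: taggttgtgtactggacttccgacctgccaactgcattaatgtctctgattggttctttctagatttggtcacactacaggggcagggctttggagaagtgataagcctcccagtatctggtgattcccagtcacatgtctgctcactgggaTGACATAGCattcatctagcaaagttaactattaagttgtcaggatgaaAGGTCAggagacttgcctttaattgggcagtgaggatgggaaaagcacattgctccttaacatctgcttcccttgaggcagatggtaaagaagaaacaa
The Abcc4 window holds 2 AHR cores and 1 NRF2 core, GCGGGGTCA. This NRF2 core reads as TGACNNNGC on the opposite strand and starts 25 bases before the start site. The Abcc4 exon at that start had only 9 reads in all 12 mice, 0.750 per mouse on average. The Abcc2 window holds 1 NRF2 core, TGACATAGC, 98 bases before the start, and 1 hexamer, and the printed Abcg2 window holds none of the 3 motifs. Few reads came from the exon at that Abcg2 start, 5.17 per mouse on average against 65.4 in exon 2, and other RefSeq starts of the gene have 2 hexamers in 1 window and 1 AHR core and 1 hexamer in another. A further Abcc4 window, at a start 29288 bases downstream, holds 1 NRF2 core, but the exon at that start had 0 reads in all 12 mice, and the window of Abcb1a holds 1 NRF2 core and 1 hexamer. Among all 32851 promoters in that table, 12.4% hold the NRF2 core, 32.4% the AHR core and 27.7% a hexamer, so single matches are common. No pair of hexamers in the same direction 3, 4 or 5 bases apart (DR3, DR4, DR5) and no everted pair 6 bases apart (ER6) was found in these windows, against at most 0.0396% of all promoters. A match is a run of letters and was not tested as a binding site.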

How the data were processed

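Liver RNA-seq of 12 mice, 6 per diet, was grouped by the sample labels. The authors deposited whole-number counts of reads per gene and per exon, without normalization. Per the file headers these were made with featureCounts of Subread 1.6.3 on a UCSC annotation of mm10, with no strand option and, in the gene tables, without reads matching several places or several genes. The submitters' processing notes name STAR 2.5.3a. Genes that reached 1 CPM in 2 or more mice were scaled by TMM, and the quasi-likelihood F test in edgeR 4.0.16 (R 4.3.3) was applied, with Benjamini-Hochberg adjustment over all 12481 tested genes, after the fit was tested on simulated counts. Single genes were also compared by a two-sided exact permutation test of log2 CPM over all divisions of the mice into 6 and 6. Library pairs of 1 diet differed by at least 13.4 in chi-square per degree of freedom, so none was taken as a repeat. Alternatives were DESeq2 1.42.0, limma-voom (limma 3.58.1), upper-quartile normalization, other filters, the authors' counts of primary alignments, 1 surrogate variable (sva 3.50.0) and each mouse left out.

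Named genes are the 6 transporters, 4 of the 5 other ABC genes past an FDR of 0.05, Abcb1b, at most 4 called genes of each list with defining genes that did not pass, and the 2 genes most correlated with each called transporter. The transporters and the lists were chosen with earlier results of these data known. Whether the reads were single or paired is not given in the sources used here, and the labels give no batch.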

Additional observations from a re-analysis of the deposited data

Results flagged for a closer look

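Over the total counts, the 6 transporter genes, Abcb1b and the 5 other ABC genes past an FDR of 0.05, 26 groups of 6 mice were examined for a mouse far from the rest of its group. In 1 group such a mouse was found, against 1.30 expected if chance sets apart about 1 in 20 groups. For Abcb1a, BIBB-515 replicate 8 was the highest of its group at 22.5 CPM, with the nearest mouse at 18.8 CPM, and this gap was 0.715 of the range of the group. Without that mouse Abcb1a kept an FDR under 0.05 in edgeR's quasi-likelihood test, as it did without each of the other 11.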

How the results depend on the processing

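Under the 7 alternatives that kept all 12 mice, the same 4 transporters had an FDR under 0.05 and Abcc2 and Abcc6 did not. The log2 fold changes were 1.70 to 1.75 for Abcc3, 0.98 to 1.06 for Abcb1a, 0.87 to 0.90 for Abcc4, 0.40 to 0.41 for Abcg2, 0.28 to 0.29 for Abcc2 and -0.16 to -0.15 for Abcc6. With 1 surrogate variable as covariate, the number of other ABC genes past the threshold was 9 instead of 5. In that fit 2443 of all 12481 tested genes were past it instead of 1705, so calls were more numerous among all genes too. The cause was not tested.

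When each mouse in turn was left out (12 fits), Abcc3 (1.61 to 1.86), Abcb1a (0.87 to 1.15) and Abcg2 (0.35 to 0.48) kept their calls. Abcc4 ranged from 0.75 to 1.05 and was past the threshold in 4 of 12 fits, and Abcc2 ranged from 0.23 to 0.36 and passed in 1. Between 3 and 5 of the 6 transporters and between 3 and 7 other ABC genes were past it, against 4 and 5 with all mice. Among all tested genes, between 1199 and 1865 were past it, against 1705 with all mice. Those higher with BIBB-515 numbered between 672 and 1006, against 896, and those lower between 523 and 897, against 809. The fewest lower genes, 526 and 523, were without BIBB-515 replicates 9 and 10. In these 2 fits 1212 and 1199 genes passed in either direction, and the cause was not tested. These fits have fewer mice. No paired analysis was possible because the groups share only replicate number 6, which does not pair animals. Depth limits Abcc4 (from 40 reads per mouse) and Abcb1b (from 12).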
